A study of Mus musculus with 2 samples.

Results

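The nuclear-encoded respiratory chain genes are the protein-coding genes whose symbols begin with Nduf, Cox4 to Cox8, Uqcr or Atp5, together with Sdha, Sdhb, Sdhc, Sdhd, Cycs and Cyc1. This rule took 95 of the 43346 genes with an Ensembl identifier in the spleen tables, of which 21474 are protein-coding. It uses names only and no measured value. Of the 95 genes, 84 encode parts of the finished chain: 36 in complex I, 4 in complex II, 9 in complex III, 18 in complex IV, 16 in complex V and 1 for cytochrome c. The other 11 carry a matching symbol but lie outside the complexes. They are 8 complex I assembly factors (Ndufaf1 to Ndufaf8), the supercomplex factor Cox7a2l, the Ndufa4 paralog Ndufa4l2, and Atp5s, a factor associated with ATP synthase. Ndufa4 is counted here in complex IV, where its protein is found, although its symbol names complex I.

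The respiratory chain sits in the inner mitochondrial membrane. Complexes I and II pass electrons from NADH and succinate to ubiquinone, complex III passes them to cytochrome c, and complex IV passes them to oxygen. Complexes I, III and IV pump protons, and ATP synthase (complex V) uses the returning protons to make ATP. All complexes but complex II combine subunits encoded in the nucleus with subunits encoded in mitochondrial DNA. Several subunits of complexes IV and V have paralogs, some of them restricted to heart and skeletal muscle or to testis.

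The data are polyadenylated RNA-seq of spleen tissue from a C57BL/6J mouse, a male adult of 10 weeks. The labels name 2 libraries of the same donor and tissue sample as its technical replicates 1 and 2, and give only 1 biological replicate. They add that replicate 2 was made later, in 2015, after a publication of 2014 that did not use it. There is no treatment or control, and no biological error can be given. By the labels the spread between the libraries is technical, which was not tested, and the libraries differ widely. The comparison made is replicate 2 over replicate 1, and with 1 library on each side no p-value was computed.

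The libraries stand apart from each other. Replicate 1 held 27528824 expected counts and replicate 2 held 3806381, a depth ratio of 7.23. All 15 spleen markers (B cell and red pulp genes) reached 1 TPM (a transcript level divided by length and scaled to the same total in each library) in both libraries. The 11 erythroid markers held 4.32% of TPM in replicate 1 and 44.3% in replicate 2. The alpha globin genes Hba-a1 and Hba-a2 made up 41.3% in replicate 2 against 2.47% in replicate 1. TPM sums to a fixed total, so the TPM of all other genes in replicate 2 shares the rest, and the part of this in the results below was not tested except where a rescaled value is given. The 14 heart and skeletal muscle markers summed to 11.7 and 36.5 TPM, with Tnni3 the highest, and the 9 testis germ cell markers to 0.15 TPM in replicate 1 and 0 in replicate 2.

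The sequences of 3 members show how alike the genes of a family can be. Atp5g1, Atp5g2 and Atp5g3 lie at chr11:96068852-96075670, chr15:102662864-102672352 and chr2:73908447-73911326 (GRCm38, all on the minus strand). Each encodes the c subunit, the proton-carrying ring of ATP synthase, behind its own import sequence. The last 75 codons before the stop encode the mature subunit and are shown here 5′ to 3′ from the GENCODE M21 transcripts. Capitals mark the 57 of 225 positions at which the 3 genes are not all alike.
Atp5g1: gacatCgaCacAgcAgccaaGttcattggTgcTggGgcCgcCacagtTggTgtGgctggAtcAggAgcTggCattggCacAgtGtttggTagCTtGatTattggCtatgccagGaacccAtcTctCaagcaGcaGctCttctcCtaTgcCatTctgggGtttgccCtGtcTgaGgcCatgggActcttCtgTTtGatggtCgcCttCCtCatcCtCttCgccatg
Atp5g2: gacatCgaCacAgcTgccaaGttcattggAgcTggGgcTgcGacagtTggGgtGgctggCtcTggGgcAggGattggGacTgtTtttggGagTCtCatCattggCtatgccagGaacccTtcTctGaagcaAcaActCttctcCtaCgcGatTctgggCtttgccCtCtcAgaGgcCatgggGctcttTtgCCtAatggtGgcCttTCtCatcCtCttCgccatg
Atp5g3: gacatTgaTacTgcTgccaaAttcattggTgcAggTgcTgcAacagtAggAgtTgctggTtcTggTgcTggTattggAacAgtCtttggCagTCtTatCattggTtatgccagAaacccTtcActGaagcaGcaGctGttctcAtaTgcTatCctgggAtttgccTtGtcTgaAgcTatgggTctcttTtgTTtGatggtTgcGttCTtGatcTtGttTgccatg

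These bases differ in 52 of the 75 codons, yet 0 codons differ in the amino acid they encode. Atp5g1 and Atp5g2 share 84.9% of the positions, Atp5g1 and Atp5g3 80.0%, and Atp5g2 and Atp5g3 78.7%. The sequence before this stretch is 61 codons long in Atp5g1, 71 in Atp5g2 and 66 in Atp5g3. GC content of the shared stretch is 54.7% in Atp5g1, 55.6% in Atp5g2 and 45.8% in Atp5g3.

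Upstream sequence was also read for the members, because NRF1 and ETS-family factors are known regulators of respiratory chain genes. RefSeq promoters (GRCm38.p6) were matched for 77 of the 95 members, and the 250 bases before the start were searched on both strands. The NRF1 core CATGCGC was found in 12 members, or 15.6%, against 3.68% of all 27025 genes with a promoter and 6.73% of the 9280 protein-coding genes tested here. In 5 members the core on both strands overlaps to form the longer palindrome typical of NRF1 sites. These 5 are shown with Cycs and Sdhb, 5′ to 3′ on the gene's strand, with the core of either strand in capitals.
Atp5g2 (chr15:102671063-102671109, minus strand): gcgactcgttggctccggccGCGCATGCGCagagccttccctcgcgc
Atp5k (chr5:108434423-108434469, minus strand): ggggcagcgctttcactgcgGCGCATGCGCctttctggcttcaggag
Cox6a1 (chr5:115349094-115349140, minus strand): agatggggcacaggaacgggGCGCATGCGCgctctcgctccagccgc
Ndufa11 (chr17:56717682-56717728, plus strand): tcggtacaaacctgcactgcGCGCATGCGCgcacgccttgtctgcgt
Ndufaf4 (chr4:24897950-24897996, plus strand): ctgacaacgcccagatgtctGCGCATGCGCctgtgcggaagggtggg
Cycs (chr6:50566602-50566648, minus strand): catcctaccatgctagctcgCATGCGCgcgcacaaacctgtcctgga
Sdhb (chr4:140961198-140961244, plus strand): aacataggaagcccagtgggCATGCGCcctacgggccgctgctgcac

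The match begins between 42 and 162 bases before the start in these genes. The other 5 members with the core are Atp5l, Cox5b, Ndufa6, Ndufa8 and Ndufb6. The ETS core CCGGAAG was found in 14 members (18.2%), against 7.83% of all genes and 16.2% of the protein-coding genes tested. The YY1 core AAGATGG was found in 1 member, Atp5j, or 1.30%, against 5.18% of all genes and 5.13% of the protein-coding genes tested. Bases from the start onward were not searched, so these shares leave out any core that lies there. Cores of different factors can overlap, and a match describes the letters of the window only.

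Members were abundant in both libraries. Of the 95, 89 reached 1 TPM in replicate 1 and 90 in replicate 2, and 81 and 74 reached 10 TPM. Over the 88 genes with a mean of at least 1 TPM and at least 50 counts, called tested here, the median level was 82.3 TPM in replicate 1 and 74.6 TPM in replicate 2. The median of all 12467 tested genes was 19.7 and 2.92 TPM. Summed over all 95 members, TPM was 10660 in replicate 1 and 17452 in replicate 2, which is 1.64 times as much. Rescaled to the same total without the erythroid list, a scale chosen after the values were seen, the sums were 11142 and 31322, which is 2.81 times as much. Members took 0.485% of counts in replicate 1 and 1.17% in replicate 2. For a level in bulk tissue such as this, the number of cells of a type and the RNA per cell cannot be told apart. By the labels both libraries come from the same tissue sample.

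The order of the members differed between the libraries. Uqcrh, the acidic hinge protein of complex III, was highest in replicate 1 at 606 TPM, followed by Atp5b, the catalytic beta subunit of ATP synthase, at 449 TPM. Ndufa3, a small accessory subunit of complex I, was highest in replicate 2 at 2149 TPM, followed by Atp5e, the epsilon subunit of ATP synthase, at 2028 TPM. Ndufa3 had been at 263 TPM and Atp5e at 253 TPM in replicate 1. In replicate 2 Ndufa3-204, a transcript of the nonsense-mediated decay class, held 71.3% of the TPM of Ndufa3, against 2.99% in replicate 1. The protein-coding Ndufa3-201 held 92.7% in replicate 1 and 26.8% in replicate 2. Uqcrh held rank 1 and rank 3. Across the 88 tested members, the Spearman correlation of TPM between libraries was 0.47, against 0.51 over all tested genes. These points share their library, depth and animal, and the coefficient is a description only.

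**Figure D1:**
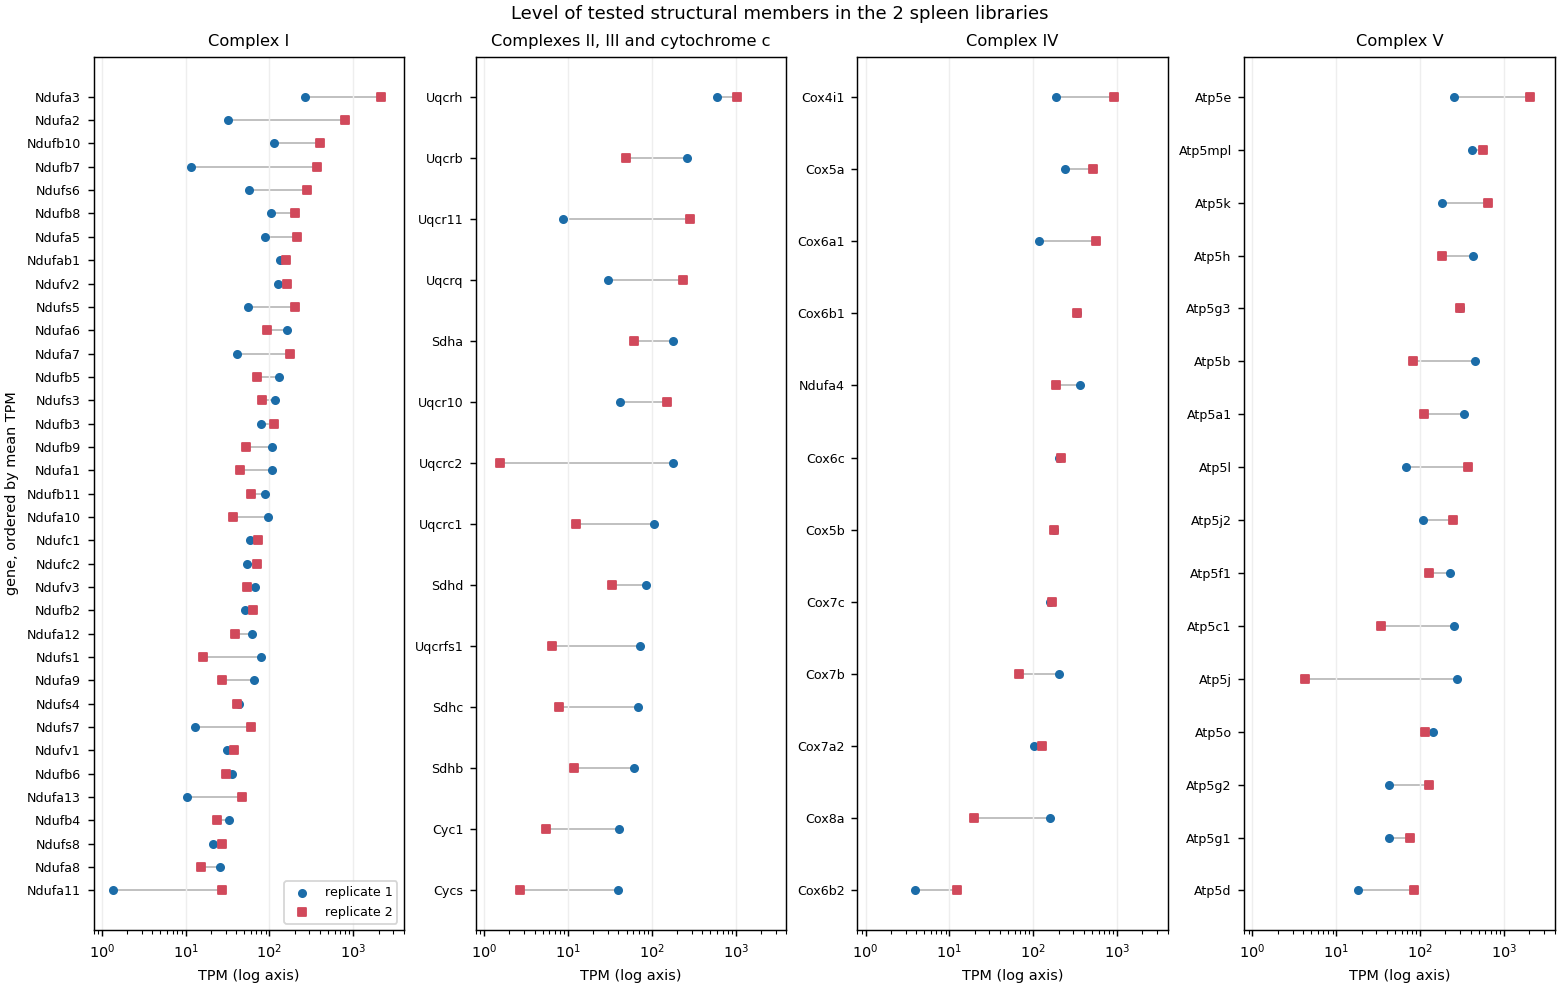
TPM on a log axis for the tested structural genes, except 1 not reported here, in replicate 1 (circles) and replicate 2 (squares), by complex and ordered by mean TPM. Uqcrc2 and Atp5j lie far lower in replicate 2, and Ndufa2, Ndufb7 and Uqcr11 far higher.

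Counts were compared after TMM scaling, with an exact 95% counting interval for each log2 ratio. A gene was called higher or lower where the whole interval lay beyond 1.5-fold. Under this rule 65 of the 88 tested members were higher in replicate 2, 7 were lower and 16 were not called. Over all tested genes 24.4% were called higher and 38.5% lower. The median log2 ratio was 1.98 for members and -0.55 for all tested genes. Scaled by total counts instead, which lowers every log2 ratio by 0.98, 45 members were higher, 15 lower and 28 not called, against 14.6% and 58.5% of all tested genes. On TPM the median log2 ratio of members was 0.01 and that of all tested genes -2.10. TPM was higher in replicate 2 for 45 of the tested members and lower for 43, and 20 members called higher on TMM-scaled counts had a lower TPM in replicate 2. All 3 scales place the members' median above that of all tested genes.

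**Figure D2:**
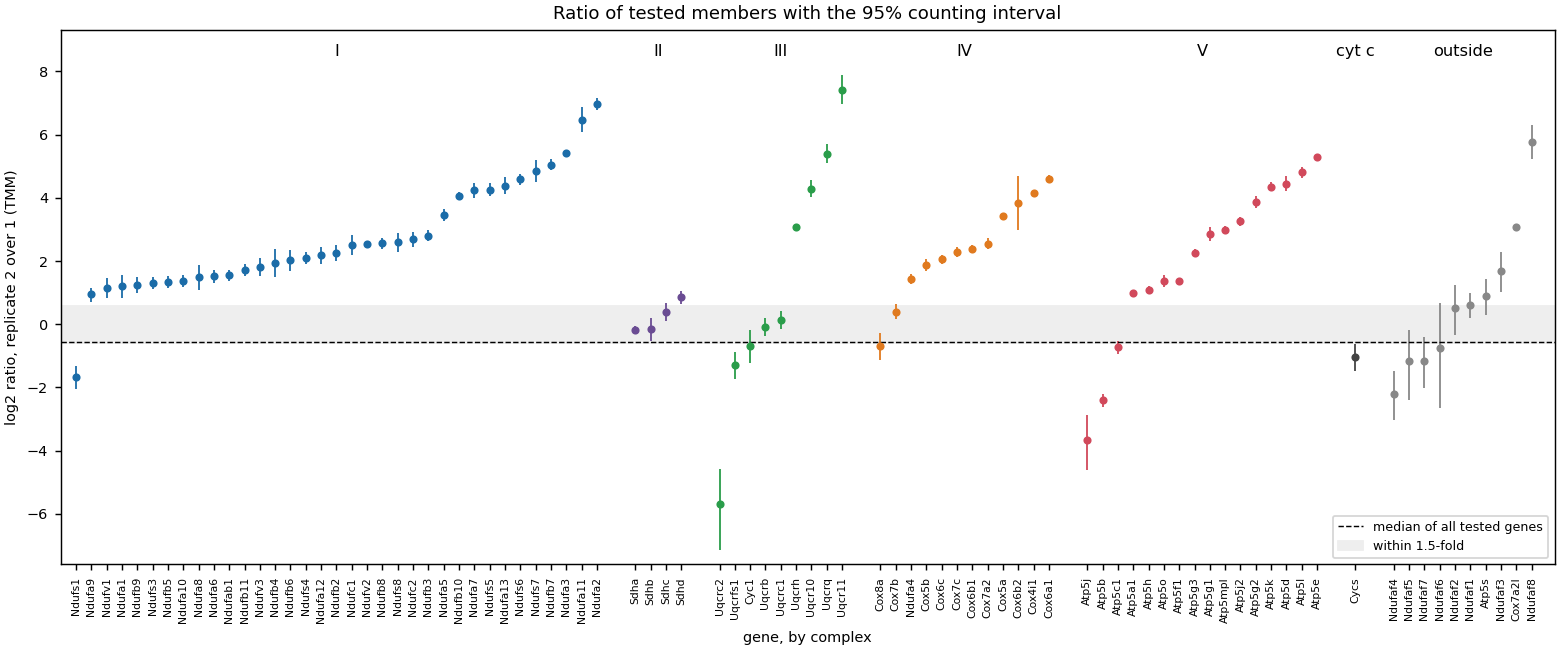
Log2 ratio of TMM-scaled counts, replicate 2 over replicate 1, for the tested members by complex, except 1 not reported here, with bars for the exact 95% counting interval. The dashed line is the median of all tested genes at -0.55, and the grey band spans 1.5-fold either way.

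Complex I, the NADH dehydrogenase, is the largest of the complexes. Of its 36 genes 34 were higher in replicate 2 and 1 was lower, and the complex had a median log2 ratio of 2.22. Beside this complex and those below stand the shares over all tested genes, 24.4% higher and 38.5% lower. All 29 supernumerary subunits, which surround the catalytic core, were higher. They ranged from Ndufa9, at 1403 and 189 counts (log2 ratio 0.94), to Ndufa2, at 235 and 2060 counts (log2 ratio 6.97). Under total counts 18 of these 29 were higher and 0 lower, the other 11 not being called. With the median of genes of like length taken off, Ndufa1, Ndufa6, Ndufa8 and Ndufb9 were no longer called.

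The 2 structural genes of complex I with the highest mean TPM were Ndufa3 and Ndufa2. Ndufa3 was at 263 TPM in replicate 1 and 2149 TPM in replicate 2, from 894 and 2655 counts, with a log2 ratio of 5.40 (interval 5.29 to 5.51). Ndufa2 was at 32.2 and 802 TPM. Ndufa11, a membrane-arm subunit, was at 1.37 and 27.2 TPM from 65 and 403 counts (log2 ratio 6.46). For Ndufa2 and Ndufa11 replicate 2 held more counts even before scaling for depth, from a library 7.23 times smaller.

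The 7 core subunits of complex I carry its flavin and its iron-sulfur clusters, among other sites. Ndufs1, the largest of them, was the only gene of the complex called lower, at 3105 and 68 counts and 79.4 and 15.96 TPM (log2 ratio -1.68, interval -2.05 to -1.33). Ndufv1, the NADH-binding flavoprotein, was at 31.5 and 37.6 TPM with a log2 ratio of 1.15. Ndufs3 had a log2 ratio of 1.31, Ndufv2 of 2.53, Ndufs8 of 2.60 and Ndufs7 of 4.85. With the median of genes of like GC content taken off, as described below, Ndufs1 had -0.31 (interval -0.68 to 0.03) and was no longer called, and neither were Ndufv1 (0.09) and Ndufs8 (0.61). The TPM of Ndufs1 over that of Ndufv1 was 2.52 in replicate 1 and 0.425 in replicate 2. Retained-intron transcripts led both genes in replicate 2. Ndufs1-210 held 91.3% of the TPM of Ndufs1, against 9.67% in replicate 1, and Ndufv1-209 held 85.0% of that of Ndufv1. The complex holds the 2 proteins in equal number, but the ratio in replicate 2 is largely not one of protein-coding transcripts.

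Complex II, succinate dehydrogenase, is the citrate cycle enzyme of the chain and has no mitochondrially encoded subunit. Its 4 genes stayed close to each other, with a median log2 ratio of 0.12. Sdha, the flavoprotein, was at 178 and 61.8 TPM (log2 ratio -0.18). Sdhb, the iron-sulfur protein, was at 60.9 and 11.7 TPM (log2 ratio -0.16). Of the membrane anchors, Sdhc was at 68.7 and 7.78 TPM (log2 ratio 0.40). Sdhd was at 85.2 and 33.6 TPM (log2 ratio 0.86, interval 0.65 to 1.06) and was the only one of the 4 called higher. The call of Sdhd stayed with the GC median taken off. It was lost under total counts, where Sdhb was called lower, and with the median of genes of like length taken off. TPM was lower in replicate 2 for all 4. For Sdha and Sdhc the leading transcript also differed between the libraries. The retained-intron Sdha-206 held 23.9% of the TPM of Sdha in replicate 1 and 75.3% in replicate 2. Sdhc was led by Sdhc-201, of 815 bases, in replicate 1. In replicate 2 it was led by Sdhc-202, of 3171 bases, which held 20.5% and 78.0%. The part of these changes in the lower TPM was not tested. The log2 ratio of Sdha, interval -0.33 to -0.04, lay within 1.5-fold under TMM and was called lower under total counts and higher, at 0.94, with the GC median taken off.

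Complex III, the cytochrome bc1 complex, had genes far apart in both directions. Of 9 genes 4 were higher, 2 lower and 3 not called, with a median log2 ratio of 0.14. Uqcrc2, core protein 2 of the complex, lies at chr7:120635176-120659524 on the plus strand. It had 4429 counts in replicate 1 and 6 in replicate 2, or 178 and 1.54 TPM (log2 ratio -5.70, interval -7.14 to -4.57). Its partner Uqcrc1 was at 1419 and 110 counts, or 107 and 12.3 TPM (log2 ratio 0.14, interval -0.15 to 0.42). The TPM of Uqcrc1 over that of Uqcrc2 was 0.600 in replicate 1 and 8.01 in replicate 2.

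The catalytic subunits of complex III with nuclear genes had negative log2 ratios. Uqcrfs1, the Rieske iron-sulfur protein, was at 72.6 and 6.52 TPM (log2 ratio -1.28) and was called lower, a call lost at -0.34 with the GC median taken off. Cyc1, cytochrome c1, was at 40.5 and 5.47 TPM (log2 ratio -0.68, interval -1.22 to -0.19) and was not called under TMM. Beside the catalytic subunits, Uqcrb, a ubiquinone-binding subunit, was at 262 and 48.9 TPM (log2 ratio -0.08, interval -0.36 to 0.20). Its call depended on the scale. Uqcrb was lower under total counts and, at -0.93, with the median of genes of like length taken off. It was higher, at 1.87, with the GC median taken off.

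The 4 genes of complex III that were higher encode small subunits, as does Uqcrb, which was not called. Uqcr11, the smallest by coding sequence at 171 bases, lies at chr10:80402997-80406830 on the minus strand. It had 44 counts in replicate 1 and 526 in replicate 2, or 8.83 and 288 TPM (log2 ratio 7.41, interval 6.97 to 7.89). This was the highest log2 ratio of any tested member. Uqcrq was at 30.3 and 237 TPM (log2 ratio 5.40), Uqcr10 at 41.4 and 154 TPM (4.28) and Uqcrh at 606 and 1044 TPM (3.08). The 2 libraries thus ordered the 9 genes differently, with a Spearman correlation of TPM of -0.10 over 9 genes.

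Cytochrome c, the mobile carrier between complexes III and IV, was lower in replicate 2 on TMM-scaled counts. Cycs had 1392 expected counts in replicate 1 and 47.6 in replicate 2, or 40 and 2.71 TPM (log2 ratio -1.03, interval -1.47 to -0.61). With the median of genes of like GC content taken off, as described below, its log2 ratio was 0.92 (interval 0.47 to 1.33), the other direction and not called. Its count in replicate 1 is less certain than most, with a posterior SD of 22.5 in the deposited table.

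Complex IV, cytochrome c oxidase, takes its catalytic subunits from mitochondrial DNA, so its nuclear genes encode the surrounding subunits. Of 18 genes 12 were tested, 10 were higher in replicate 2, 0 were lower and 2 were not called, and the median log2 ratio was 2.33. Cox4i1 was at 189 and 918 TPM from 1818 and 2244 counts (log2 ratio 4.14), and Cox5a, with the next highest mean, at 239 and 522 TPM (3.41). In replicate 2 a retained-intron transcript, Cox4i1-203, held 63.2% of the TPM of Cox4i1, against 2.99% in replicate 1. Cox6a1 had the highest log2 ratio, 4.61, at 118 and 560 TPM. Cox6b1 was at 329 and 333 TPM, Cox5b at 174 and 175 TPM and Cox7c at 156 and 167 TPM, so that their TPM hardly differed while their TMM log2 ratios were 2.38, 1.87 and 2.29. Most of the TPM of Cox5b lay on a non-coding transcript, Cox5b-205, which held 69.6% in replicate 1 and 93.8% in replicate 2. Cox7c was led by a protein-coding transcript in both libraries.

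The exceptions in complex IV were Cox8a and Cox7b. Cox8a had 1082 and 47 counts, or 160 and 19.5 TPM (log2 ratio -0.69, interval -1.15 to -0.27). Cox7b had 1878 and 174 counts, or 203 and 68.4 TPM (log2 ratio 0.40). A retained-intron transcript, Cox7b-203, held 68.6% of the TPM of Cox7b in replicate 1 and 91.1% in replicate 2. Cox8a was called lower under total counts.

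Most tissue-restricted isoforms of complex IV subunits were at or near 0 counts, with Cox6b2 and Cox4i2 the exceptions. Cox6a2, of heart and skeletal muscle, had 5 and 0 counts, and Cox7a1, also of muscle, had 1 and 0. Cox8b had 0 and 3 counts. Of the testis isoforms, Cox7b2 and Cox8c had 0 counts in both libraries, and Cox6b2 had 26 in each, or 3.93 and 12.2 TPM. Cox6b2 was called higher in replicate 2 under both scalings (log2 ratio 3.83, interval 2.99 to 4.67). Cox4i2, an isoform best known from lung, had 6 and 16 counts, or 0.58 and 4.6 TPM. A count of 0 allows up to 3 counts, which is 0.109 CPM in replicate 1 and 0.788 CPM in replicate 2. These genes, other than Cox6b2, and Ndufa4l2 are the 7 members that did not reach the filter. The widely expressed isoform held 99.7% and 99.5% of its family's TPM for Cox4i1, 99.5% and 100% for Cox6a1, 98.8% and 96.5% for Cox6b1, and 100% and 89.7% for Cox8a. The last share rests on 47 counts of Cox8a and 3 of Cox8b in replicate 2.

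Complex V, ATP synthase, had the widest spread after complex III. Of 16 genes 13 were higher, 2 lower and 1 not called, with a median log2 ratio of 2.56. The F1 head is built from subunits encoded by 5 nuclear genes. Atp5b, the beta subunit, lies at chr10:128083273-128090391 on the plus strand and had 14004 and 186 counts, or 449 and 81.0 TPM (log2 ratio -2.40, interval -2.62 to -2.19). Atp5a1, the alpha subunit, had 10881 and 1503 counts, or 331 and 110 TPM (log2 ratio 0.98).

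The smaller F1 subunits differed from these and from each other. Atp5c1, the gamma subunit, was at 256 and 34.4 TPM (log2 ratio -0.73, interval -0.94 to -0.53) and was not called. Atp5d, the delta subunit, was at 18.2 and 84.3 TPM (log2 ratio 4.45). Atp5e, the epsilon subunit, lies at chr2:174461072-174464105 on the minus strand and was at 253 and 2028 TPM from 1235 and 3410 counts (log2 ratio 5.30). The TPM of Atp5e over that of Atp5b was 0.564 in replicate 1 and 25.03 in replicate 2. In replicate 2 a non-coding transcript, Atp5b-206, held 96.6% of the TPM of Atp5b, so this ratio is not one of protein-coding transcripts.

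In the stalks and membrane part of ATP synthase 10 of 11 genes were higher. Atp5j, coupling factor 6, was the exception, with 2176 and 12 counts, or 273 and 4.20 TPM (log2 ratio -3.67, interval -4.62 to -2.86). A retained-intron transcript, Atp5j-208, held 60.3% of the TPM of Atp5j in replicate 1 and 55.9% in replicate 2. Atp5mpl, a small membrane proteolipid, was at 410 and 562 TPM (log2 ratio 2.98). Atp5l, the g subunit, was at 68.6 and 372 TPM (4.80), and Atp5k, the e subunit, at 182 and 652 TPM (4.35).

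The 3 c subunit genes kept their leading member. Atp5g3 held 77.6% of their TPM in replicate 1 and 59.7% in replicate 2, at 297 and 299 TPM. Atp5g1 held 11.2% and 15.1%, and Atp5g2 held 11.2% and 25.2%. The count of Atp5g2 is uncertain, with a deposited posterior SD of 32.8 and 46.8 around counts of 429 and 439. For Atp5g3 this SD was 0 in both libraries. With which genes Atp5g2 shared reads was not tested. Over all members the SD was 0 in both libraries for 76 of 95.

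**Figure D3:**
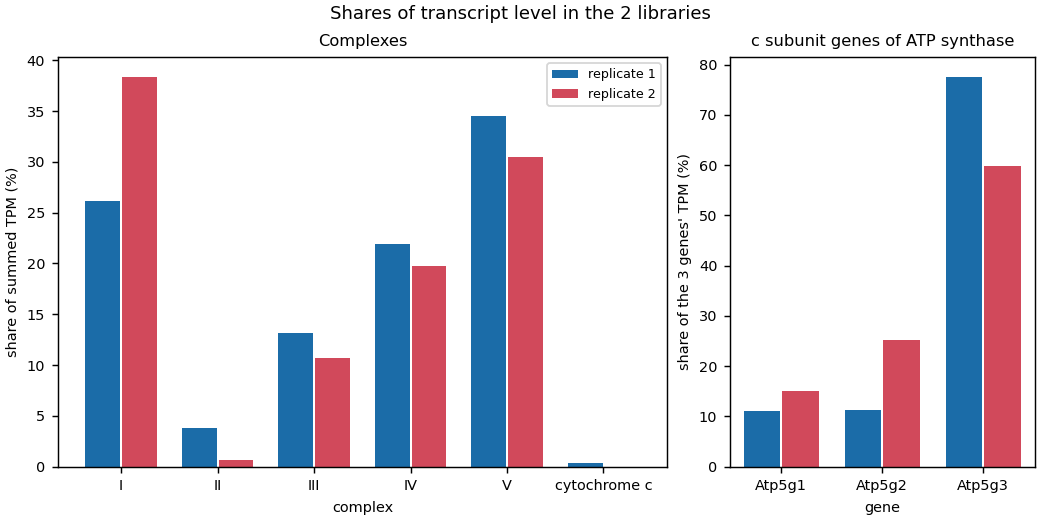
Left, share of the summed TPM of the 84 structural genes held by each complex in each library. Right, share of the 3 c subunit genes. Complex I held 26.1% in replicate 1 and 38.4% in replicate 2, and the bar of cytochrome c in replicate 2 (0.0162%) is too low to see.

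By summed TPM, complex V led in replicate 1 and complex I in replicate 2. Complex V held 34.5% of the structural TPM in replicate 1 and 30.4% in replicate 2. Complex I held 26.1% and 38.4%, complex IV 21.9% and 19.7%, and complex III 13.2% and 10.7%. Complex II held 3.85% and 0.685%, and cytochrome c 0.392% and 0.0162%. Ndufa3 alone gave 2149 of the 6434 TPM of complex I in replicate 2, and Atp5e 2028 of the 5102 TPM of complex V. Of the Ndufa3 value, 71.3% lay on Ndufa3-204, the nonsense-mediated decay transcript.

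The members outside the complexes varied with the scale. Of 10 tested, 3 were higher and 1 lower, with a median log2 ratio of 0.55, against 24.4% and 38.5% of all tested genes. Under total counts 2 were higher and 3 lower (median -0.43), and on TPM the median was -1.55. Cox7a2l, the supercomplex factor, was at 321 and 575 TPM (log2 ratio 3.06). It held 75.6% and 82.1% of the TPM of the Cox7a family. Of the assembly factors, Ndufaf8 was at 3.51 and 86.4 TPM (log2 ratio 5.75) and Ndufaf3 had a log2 ratio of 1.68, while Ndufaf4 was lower, at 983 and 15 counts (log2 ratio -2.20). The calls of Ndufaf3 and Ndufaf4 were lost with the GC median taken off. The other 5 assembly factors were not called and lay between -1.17 and 0.60.

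The genes that share a pathway with the members gave other medians, beside 24.4% higher and 38.5% lower over all tested genes. Of 36 further assembly factors of the chain, 14 were higher and 10 lower, with a median log2 ratio of 0.28. The copper chaperone Cox17 was at 68.8 and 384 TPM, and Cox20 at 117 and 5.51 TPM. Of 17 tested regulators of mitochondrial gene expression, 7 were higher and 5 lower (median 0.43), with Tfam, which packages mitochondrial DNA, at 2696 and 47 counts. Of 13 citrate cycle genes, 2 were higher and 4 lower (median -0.70), and of 13 carriers and channels, 4 were higher and 4 lower (median -0.18). All of these medians lie below the 1.98 of the members, and under total counts all 4 are negative. The calls also turn under total counts, where 14.6% of all tested genes were higher and 58.5% lower. They were then 10 higher and 16 lower for the assembly factors and 3 and 6 for the regulators. For the citrate cycle they were 0 and 9, and for the carriers 1 and 8.

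Most of the 13 subunits encoded in mitochondrial DNA were lower in replicate 2. Of the 13, 10 were lower, against 38.5% of all tested genes, with a median log2 ratio of -4.17. The 3 higher were mt-Nd6 (3.69) of complex I and mt-Co2 (2.30) and mt-Co3 (0.74) of complex IV. Under total counts 2 were higher and 10 lower, against 14.6% and 58.5% of all tested genes, and mt-Co3 was not called. The median was -2.22 with the GC median taken off and -3.16 with posterior mean counts. Their summed TPM was 104330 in replicate 1 and 3572 in replicate 2. In replicate 1 mt-Atp8 alone gave 41678 TPM from 26667 counts, while mt-Co1 gave 23002 TPM from 596086 counts. The complex V sum of replicate 1, 42359 TPM, is thus almost all mt-Atp8, and the complex V ratio below rests on that gene. For complex I the mitochondrially encoded sum over the nuclear-encoded sum was 9.92 in replicate 1 and 0.135 in replicate 2. This ratio was 6.94 and 0.0575 for complex III, 11.7 and 0.632 for complex IV, and 12.02 and 0.101 for complex V. The ratio was lower in replicate 2 for each of the 4 complexes, whichever way the libraries are scaled, since both sums come from the same library.

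The log2 ratio moved with base composition and length. Members had a median transcript GC content of 51.2%, against 50.2% for all tested genes, and a median transcript length of 733 against 1862 bases. Across the 88 members the Spearman correlation of the log2 ratio was 0.47 with GC content and -0.37 with length, against 0.51 and -0.34 over all tested genes. With coding length it was -0.55 over the members, -0.80 over the 9 genes of complex III and -0.64 over the 16 of complex V. Complex IV went the other way, at 0.68 over 12 genes. In complex III, Uqcrc2 has a coding sequence of 1362 bases at 46.6% GC and Uqcr11 of 171 bases at 60.2% GC. Uqcrc1, at 1443 bases and 57.0% GC, is as long as Uqcrc2 but had a log2 ratio of 0.14 against -5.70. These points share library and depth, and the part of composition and length in the difference between libraries was not tested.

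**Figure D4:**
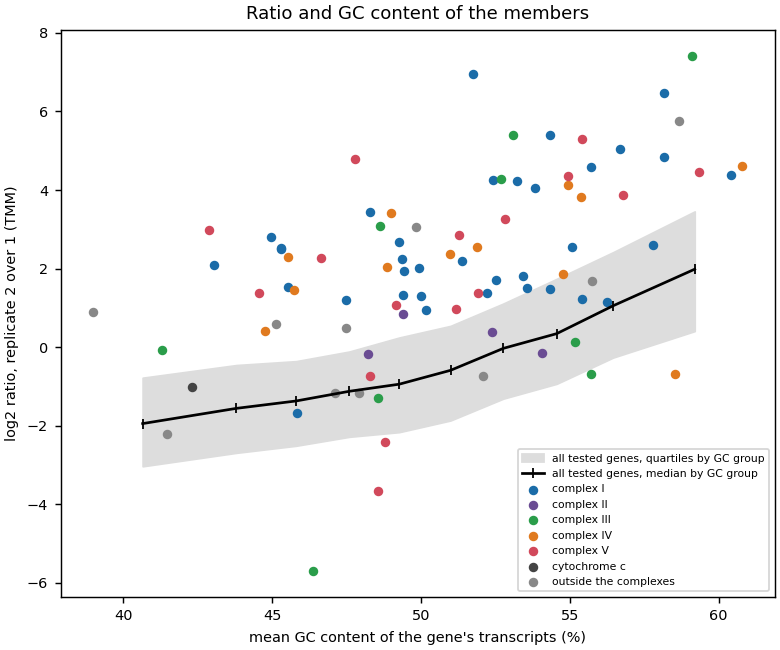
Log2 ratio (TMM) of the tested members, except 1 not reported here, against the mean GC content of its gene's transcripts, in percent, coloured by complex. The black line and grey band give the median and quartiles of all tested genes in each of 10 equal groups by GC content, from a median of -1.94 in the lowest group to 1.99 in the highest.

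Within groups of like GC content the median of the members also lay above that of all tested genes. All tested genes were cut into 10 equal groups by GC content. In the lowest 2 groups the median log2 ratio was 0.64 over 8 members and -1.75 over 2488 genes. In groups 5 and 6 it was 2.02 over 21 members and -0.76 over all genes there. In the highest 2 groups it was 4.45 over 15 members and 1.53 over 2488 genes. With the median of its GC group taken off each gene, 68 members were higher and 5 lower, against 28.1% and 25.2% of the genes with a known GC content. Of the 65 members called higher before, 62 stayed called. Of the 7 called lower, only Uqcrc2, Atp5b and Atp5j stayed called. Uqcrfs1 (-0.34), Ndufaf4 (-0.26), Ndufs1 and Cycs were lost, and Cyc1 (-1.74) and Cox8a (-2.68) were newly called lower. Among the shortest genes, in the lowest 2 of 10 groups by length, the median was 2.23 over 68 members and 0.66 over 2494 genes. With the median of its length group taken off each gene, 54 members were higher and 10 lower, against 30.3% and 26.8% of all tested genes.

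For many members the libraries also differed in which transcript carried the signal. The deposited transcript tables give each transcript's share of its gene's TPM. Among 59 members with more than 1 transcript, a mean of at least 10 TPM and counts in both libraries, the leading transcript was the same in 40, or 67.8%. Over all 5402 genes compared it was the same in 56.0%. In the 19 that differed, the leading transcript of replicate 2 was the shorter in 15. It was of the protein-coding class for 47 of the 59 in replicate 1 (79.7%) and for 35 in replicate 2 (59.3%), against 84.8% and 77.0% of 5273 protein-coding genes. Retained-intron transcripts led in 5 members in replicate 1 and in 14 in replicate 2. For shorter and for retained-intron leading transcripts the shares over all genes were not computed. Whether these counts are particular to the members was therefore not tested.

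Atp5b had the largest such change. Its transcript Atp5b-201, which encodes the protein, held 88.8% of the gene's TPM in replicate 1 and 3.20% in replicate 2. A non-coding transcript of 478 bases, Atp5b-206, held 0% in replicate 1 and 96.6% in replicate 2. The 186 counts of replicate 2 thus fall on a gene whose mean transcript length was 1822 bases in replicate 1 and 526 in replicate 2, and its TPM of 81.0 rests on that length. Ndufaf8 moved to a retained-intron transcript that held 6.51% and 95.4%. Atp5g3 moved between 2 protein-coding transcripts, Atp5g3-202 holding 0% and 85.5%. In Ndufv1 a retained-intron transcript, Ndufv1-209, held 3.26% and 85.0%. Only 1 leading transcript, that of Uqcrc2 in replicate 2, was not matched to M21, and it rests on 6 counts of the gene.

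**Figure D5:**
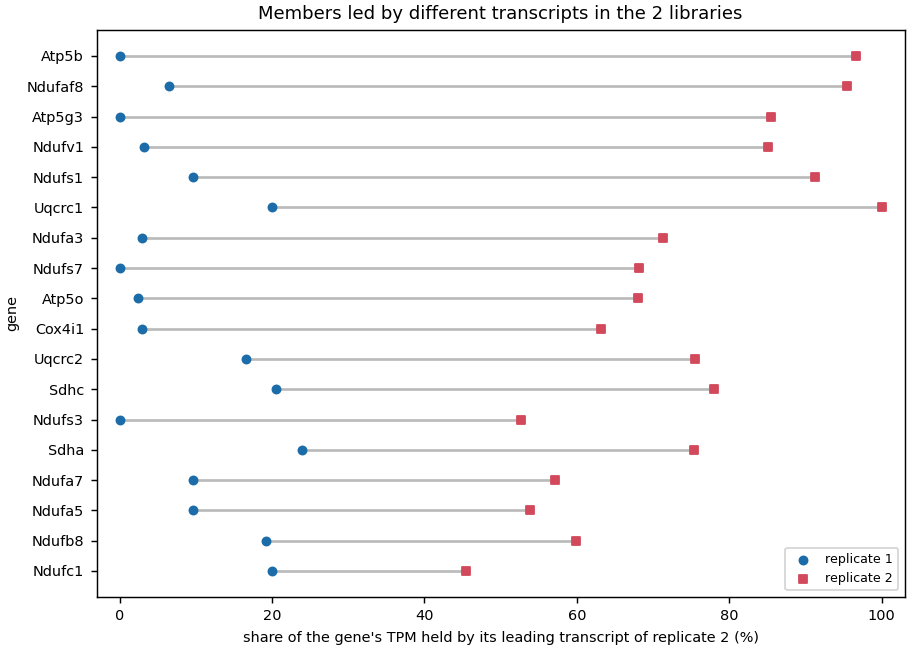
Share of a gene's TPM, in percent, held in each library by the transcript that led in replicate 2, for the members whose leading transcript differed, except 1 not reported here. Circles are replicate 1 and squares replicate 2, with Atp5b at 0% and 96.6%.

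A shift of this kind changes the length by which TPM divides. The deposited mean length of the gene differed by 1.5-fold or more for 13 members, being shorter in replicate 2 for 10 and longer for 3. The share of all genes with such a difference was not computed. Ndufb7 went from 2236 to 623 bases, and its TPM from 11.8 to 374 on 461 and 1074 counts. Uqcrc1 went from 885 to 1653 bases and Cycs from 2009 to 3123 bases, both with a lower TPM in replicate 2.

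Several members overlap other genes, and whether the counting used strand is not given in the sources used here. In GENCODE M21, 32 members share exon bases with another gene, 28 of them only with a gene on the opposite strand. Atp5j overlaps Gabpa, an ETS-family regulator of respiratory chain genes, by 397 bases. Gabpa had 3303 counts in replicate 1 and 32 in replicate 2, as Atp5j had 2176 and 12. Ndufs3 overlaps Kbtbd4, which had 704 and 8 counts while Ndufs3 had 1378 and 239. Uqcrc2 overlaps Pdzd9 by 504 bases, and Pdzd9 had 0 counts in both libraries. Atp5b and Uqcr11 share no exon base with another gene.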

How the data were processed

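Per the labels, polyadenylated RNA of 1 spleen was sequenced as 2 technical replicates. The authors deposited gene and transcript tables for each, made on mm10 with GENCODE M4 per the text deposited with them. The deposited values, per the file headers, include expected counts, which divide shared reads among genes, TPM, each transcript's percent of its gene's TPM, and other columns such as lengths in bases and the posterior SD of each count. The aligner, the quantifier and their settings are not given in the sources used here. Symbols, classes and coordinates came from GENCODE M21 (GRCm38), and 42462 of 43346 identifiers matched. Other rows, which held 1.09e-05% and 2.10e-04% of counts, were left out.

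Members and lists were chosen with earlier results of these data known. Expected counts were rounded and scaled with TMM (edgeR 4.0.16, R 4.3.3) over all Ensembl genes. Log2 ratios were given exact Clopper-Pearson 95% intervals, conditional on the sum of both counts, with a count of 0 set to a floor of 3. Intervals cover counting error only, and PCR duplicates are not independent molecules. Tested genes had a mean TPM of 1 or more and 50 or more counts over both libraries, and were called where the interval lay beyond 1.5-fold. No count model was fitted to test genes, since there is 1 library a side. GC content and length were means over a gene's transcripts. Sequences were read with Biopython 1.88. The NRF1 and YY1 cores were chosen after longer forms of both motifs had been searched. Alternatives were DESeq2 1.42.0 size factors, total counts, TPM with a pseudocount of 1, other filters (none, or 10 TPM), removal of the median of each of 10 groups by GC content or length, posterior means, a 2-fold call, a 99% interval, and averages without replicate 1 or 2. Named in the text were, for each complex, the 2 members of highest mean TPM and the 2 highest and 2 lowest by log2 ratio, the catalytic subunits, paralog families and the 4 largest changes of leading transcript. Further members were named after their values were seen. The values of 1 member are not reported here; counts and medians include it.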

Additional observations from a re-analysis of the deposited data

Results flagged for a closer look

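A gene outside the comparisons gave a signal. Ndufb4c, annotated as a processed pseudogene of the complex I gene Ndufb4, had 352.54 expected counts in replicate 1 and 3.65 in replicate 2. Ndufb4 itself had 211.46 and 57.35. The TPM of Ndufb4c over that of Ndufb4 was 2.83 in replicate 1 and 0.104 in replicate 2. Reads of a gene and its processed copy can be hard to divide, and the deposited posterior SD of the count of Ndufb4c was 7.92 and 2.29. The other 10 pseudogenes with a matching name had at most 1.30 counts in either library.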

How the results depend on the processing

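Depth limits replicate 2, where a count of 0 allows 0.788 CPM, and 1 library a side gives no error beyond counting. The counts of higher members stayed within 1.5 times of 65 under each alternative run, and those of lower members within 1.5 times of 7 except under total counts (15). The genes behind the counts change: with the GC group removed 3 of the 7 lower members stayed called and 2 others entered, and with the length group removed 5 stayed and 5 entered. TPM ratios have no interval and gave no calls. Medians are given in the order members, complexes I, II, III, IV and V. They were 2.11, 2.34, 0.24, 0.26, 2.46 and 2.68 with DESeq2 size factors, and 1.01, 1.24, -0.86, -0.83, 1.36 and 1.58 with total counts. They were 0.0065, 0.29, -1.90, -2.40, 0.0753 and 0.23 for TPM with a pseudocount of 1. With the GC group removed they were 2.60, 2.87, 0.68, 1.87, 2.89 and 2.87. With TMM over the tested genes, an alternative chosen after seeing the data, they were 2.27, 2.50, 0.41, 0.43, 2.62 and 2.85. With the length group removed, the medians that changed were 1.22 (members), 1.68 (I), -0.40 (III), 1.52 (IV) and 1.78 (V). With no filter beyond 1 count, those of members and complex IV were 2.09 and 2.82. The medians of complexes II and III thus change sign with the scale. Assembly factors and regulators had medians of -0.70 and -0.55 under total counts and -1.79 and -1.65 on TPM. The citrate cycle and the carriers had 0.22 and 0.19 with the GC group removed and 0.0718 and 0.29 with the length group removed, and the carriers had 0.10 with TMM over the tested genes. These shifts follow from the constants or group medians taken off; for TPM the cause was not tested. Without the member of highest mean TPM in each complex, the mean share of complex III was 7.84% in place of 11.96% and that of complex IV 23.1% in place of 20.8%. No paired analysis was possible because the labels define 1 group.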
